A study of Mus musculus with 15 samples.

Results

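The genes described here are matrix metalloproteinases (MMPs), their tissue inhibitors (TIMPs) and related ADAM and ADAMTS proteases in cultures of 21EM15, a mouse lens epithelial cell line. The 10 listed genes were *Mmp2*, *Mmp11*, *Mmp14*, *Mmp15*, *Timp1*, *Timp2*, *Timp3*, *Adamts1*, *Adam9* and *Adam17*. They were selected on being listed in both deposited tables, that is, on passing the expression filter used by the authors, and 9 of the 10 did so. *Mmp15* was not analysed here. The tables hold 11677 genes for the cultures and 11299 for the regions of the spheroids, and 11041 genes are in both. The list was drawn up with earlier results of these data known, so the fits below describe these genes and are not independent evidence for them.

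MMPs are zinc-dependent proteases that cut collagens, laminins, proteoglycans and other proteins outside the cell. Most are secreted or membrane-bound, are made as inactive precursors, and are blocked by TIMPs, which bind the active site. ADAM proteases mainly release growth factors and receptors from the cell surface, whereas ADAMTS proteases are secreted and act on the matrix. In the lens, these enzymes and their inhibitors are known from the turnover of the capsule, the basement membrane around the lens, and from the epithelial changes of some cataracts.

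RNA was measured by 3′ end sequencing (QuantSeq) in 4 groups of unmodified 21EM15 cells. The 2D group held 4 samples, each from a dish at 80% confluence, and the 3D group held 4 samples, each from pooled spheroids grown for 10 days in non-adhesive wells. Laser capture microdissection (LCM) of sectioned spheroids gave 4 internal samples, from the core, and 3 external samples, from the outer layers. A further external sample was set aside by the authors because it lay apart from the others in their principal component analysis, and it was not analysed here. The separation of the regions below is therefore that of samples retained on the basis of these data. The RNA of the regions was extracted with another kit than that of the cultures. Each of the 2 tables had its own normalization, and no test crosses them. All samples come from 1 immortalized line, spheroids were pooled within each 3D replicate, and the intermediate region of the spheroids was not sampled.

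Between 7305053 and 9362587 reads were counted per culture sample and between 4044230 and 11702504 per region sample. A count of 3 reads, taken as the smallest signal, corresponded to between 0.312 and 0.409 CPM (reads scaled to library size) in the cultures and between 0.248 and 0.802 CPM in the regions. Of 15 lens markers, 8 were measured in the cultures and 10 in the regions, with *Pax6*, *Six3*, *Cryab* and *Prox1* in both, whereas *Cryaa*, *Foxe3*, *Cdh1*, *Mip* and *Crygs* were in neither. Their summed level was 978 to 1392 CPM in 2D and 1806 to 2400 CPM in 3D, and 1138 to 1319 CPM in the external and 1814 to 2370 CPM in the internal region. By the rule given below, *Cp* (log2 fold change 3.84) was called higher in 3D and none lower. In the internal region, *Prox1* (1.45), *Maf* (1.25) and *Hsf4* (3.03, at most 6 external reads) were called higher, as were 3.27% of all genes, and none lower. *Prox1* had as few as 1 read in the 2D group, where its median was 328.5 reads. Markers of fibroblasts, 9 of 10 of which were measured in the cultures, summed to 1073 to 4156 CPM in 2D and 1790 to 2469 CPM in 3D. Of these 9, *Dcn* (log2 fold change 5.86), *Postn* (4.19), *Col3a1* (2.49) and *Pdgfrb* (1.03) were called higher in 3D by the rule given below, which called 2.92% of all genes higher. *Thy1* also passed, but with at most 3 reads in any 2D sample it entered the table only through its 3D reads and is not counted. The median over all 9, with *Thy1* included, was 1.03. *Acta2*, the most abundant of them, had a log2 fold change of -0.46 and was not called. *Col1a2*, with at most 26 reads in any sample, was lower in every 3D than in every 2D sample. Its log2 fold change of -1.47 was not called (limma adjusted p = 0.0574). In the regions, 8 of these 10 were measured, at 881 to 1354 CPM in the external and 1149 to 1414 CPM in the internal region. There, *Postn* (2.73) and *Col3a1* (1.59) were called higher and *Acta2* (-2.56) and *Col1a1* (-1.56) lower in the internal region, on the log2 scale. None of the 5 endothelial markers was measured, and the macrophage markers *Cd68* and *Csf1r* together reached at most 9.52 CPM in any sample. The share of reads from 7 mitochondrially encoded genes moved with the groups, from 2.27 to 3.72% in 2D to 4.02 to 6.23% in 3D, and from 2.53 to 3.60% in the external to 5.42 to 6.98% in the internal region. The part of these markers and of this share in the results below was not tested. In such bulk samples, fewer cells of a type and less RNA per cell cannot be told apart.

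*Timp2* had the highest level of the 9 genes in every group. Because 3′ end reads do not scale with transcript length, levels can be set side by side between genes. *Timp2*, a secreted inhibitor that also takes part in the activation of MMP2 at the cell surface, ranked 115th of 11677 genes by mean level in the cultures and 52nd of 11299 in the regions. *Mmp14*, the membrane-bound MMP that activates MMP2, ranked 371st and 110th, and *Mmp2*, which encodes gelatinase A, ranked 492nd and 125th. *Timp1* ranked 183rd in the cultures but 709th in the regions, and *Mmp11* ranked 3795th in the cultures but 288th in the regions. *Adam9* was the lowest of the 9 genes in every group, at 9571st and 10585th.

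**Figure D1:**
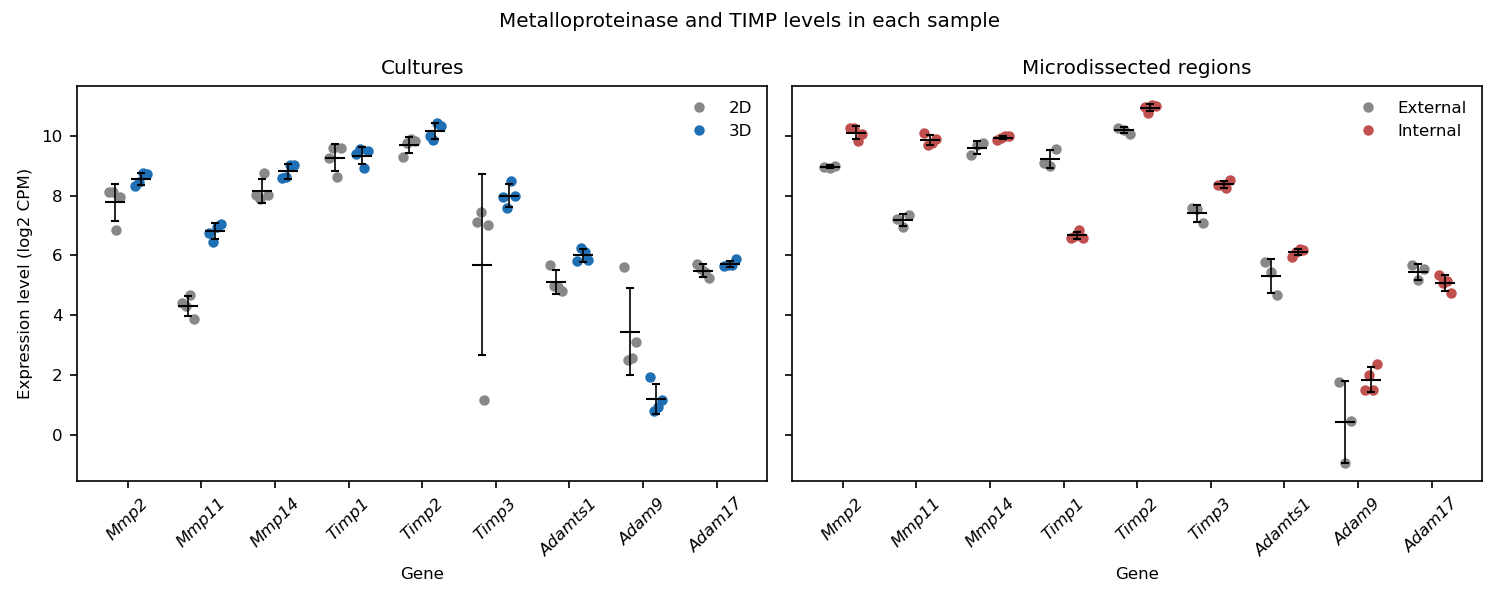
Expression level of the 9 genes in each sample, in log2 CPM, with the cultures on the left and the microdissected regions on the right. Points are samples, horizontal bars are group means and vertical bars are SD (n = 4, except n = 3 for External). *Mmp11* was higher in every 3D than in every 2D sample and in every internal than in every external sample, *Timp1* was lower in every internal than in every external sample, and *Timp3* was at 1.16 log2 CPM in the 2D replicate 3.

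The order of the levels differed between the groups. In 2D it ran *Timp2*, *Timp1*, *Mmp14*, *Mmp2*, *Timp3*, *Adam17*, *Adamts1*, *Mmp11* and *Adam9*, and the ranges of all neighbours overlapped apart from those of *Adamts1* and *Mmp11*. In 3D, *Mmp11* stood in 6th place, apart from *Timp3* above it and *Adamts1* below it, and *Timp2* stood apart from *Timp1*. In the external region, *Mmp11* was again in 6th place and overlapped with *Timp3*, while *Timp1* in 3rd place overlapped with *Mmp14* above it. In the internal region, *Mmp11* was in 4th place with a range that overlapped that of *Mmp14*, and *Timp1* was in 6th place, with no overlap with *Timp3* above or *Adamts1* below.

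The first comparison asked how the growth of the cells as spheroids changes gene expression relative to a flat culture. *Mmp11*, which encodes stromelysin-3, a secreted MMP that is cut into its active form inside the cell by furin, was the member with the clearest difference. It had 201, 144, 214 and 139 reads in the 2D samples and 850, 702, 957 and 1063 reads in the 3D samples. In log2 CPM, these were 4.41, 4.31, 4.66 and 3.88 in 2D and 6.76, 6.44, 6.96 and 7.04 in 3D. Every 3D sample was above every 2D sample. The mean rose from 4.32 ± 0.33 to 6.80 ± 0.27 log2 CPM (SD, n = 4 each). This is a log2 fold change of 2.49 (SE 0.20, 95% confidence interval 2.05 to 2.92) or 5.60-fold, with a limma adjusted p of 0.000189.

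A gene counted as called when its Benjamini-Hochberg adjusted p, over the whole table, was under 0.01 and its absolute log2 fold change was over 1. On this rule, 1 of the 9 members was called higher in 3D (*Mmp11*) and 0 lower, against 2.92% of all 11677 genes called higher and 1.51% called lower. At an unadjusted p under 0.05 by limma, 5 members were higher and 1 was lower, against 33.7% of all genes in both directions together. The groups did not overlap for 4 members that were higher in 3D (*Mmp2*, *Mmp11*, *Timp3*, *Adamts1*) and 1 that was lower (*Adam9*), against 12.0% of all genes in each direction. The median log2 fold change of the members was 0.65, with 8 positive and 1 negative, and that of all genes was -0.03.

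The promoter of *Mmp11* is shown because this gene had the largest difference of the 9 in both comparisons. It is taken from RefSeq on GRCm38.p6 and runs from 250 bases before to 50 bases after the start of the gene at chr10:75932453-75932752, on the minus strand, inside the span of 75923222 to 75936496 that GENCODE vM21 gives the gene on chromosome 10. Capitals mark matches to GGGCGG, the core of the sequence bound by Sp1, on either strand.
*Mmp11*: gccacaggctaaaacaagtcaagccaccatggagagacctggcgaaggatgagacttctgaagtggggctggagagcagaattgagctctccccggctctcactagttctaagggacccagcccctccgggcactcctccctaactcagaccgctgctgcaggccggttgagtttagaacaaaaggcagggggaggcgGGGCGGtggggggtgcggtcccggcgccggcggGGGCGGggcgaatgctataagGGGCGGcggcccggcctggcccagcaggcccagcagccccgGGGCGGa
The window held 4 matches to GGGCGG, starting at -52, -19, 2 and 43 from the RefSeq start, and its GC content was 67%. GGGCGG occurred in 35.7% of all 32851 promoters of this length, and in each of the 7 member promoters that were matched. TGANTCA, the AP-1 sequence known from the promoters of several MMP genes, was found in none of the 7 and in 7.81% of all promoters. Variants of TGANTCA were not searched, so AP-1 sites with other letters would be missed. TATAAA was found in 13.6% of all promoters and, among the members, in that of *Adamts1* (at -32). ACGTG, the core of the sequence bound by hypoxia-inducible factors, was found in those of *Timp1* and *Mmp14* and in 19.6% of all. Both strands were searched, no matches to different sequences overlapped in these 7 windows, and a match describes letters in the window only.

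The gelatinase and membrane-type members differed less between the cultures. *Mmp2* lies on chromosome 8 at 92827291 to 92853420 and *Mmp14* on chromosome 14 at 54431612 to 54445364 (GENCODE vM21, GRCm38). *Mmp2* had 8.13, 8.13, 6.86 and 7.95 log2 CPM in 2D and 8.33, 8.44, 8.75 and 8.72 log2 CPM in 3D. The groups did not overlap, and the 2D replicate 3 lay far below the other 2D samples. The log2 fold change was 0.79 (SE 0.26, limma adjusted p = 0.0582), and it was 0.49 (adjusted p = 0.0595) without that replicate. *Mmp14* had 8.01, 7.87, 8.76 and 8.03 log2 CPM in 2D and 8.57, 8.61, 9.04 and 9.03 log2 CPM in 3D. Here the 2D replicate 3 was the highest 2D sample and lay within the 3D range, and the log2 fold change was 0.65 (SE 0.20, limma adjusted p = 0.0497). Neither gene was called.

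Of the inhibitors, none was called between 3D and 2D. *Timp2* lies on chromosome 11 at 118301069 to 118355740 and *Timp3* on chromosome 10 at 86300372 to 86349506. *Timp1*, a secreted inhibitor also known as a growth-promoting factor, was at 9.25, 9.59, 8.63 and 9.58 log2 CPM in 2D and 9.40, 9.55, 8.91 and 9.48 log2 CPM in 3D. The groups overlapped almost fully. Its log2 fold change was 0.07 (95% confidence interval -0.43 to 0.57, limma adjusted p = 0.854), and this turned to -0.14 without the 2D replicate 3. *Timp2* was at 10.15 ± 0.27 log2 CPM in 3D against 9.69 ± 0.27 log2 CPM in 2D (SD, n = 4 each). The groups overlapped, with a difference of 0.46 on the log2 scale (SE 0.18, limma adjusted p = 0.0954).

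*Timp3* encodes an inhibitor that stays bound to the matrix and also blocks ADAM17. It had 1326, 1280, 17 and 1255 reads in the 2D samples and 1925, 1544, 2782 and 2020 reads in the 3D samples. The 2D replicate 3 stood far apart, at 1.16 log2 CPM, whereas the rest of the 2D group lay between 7.03 and 7.45. The log2 fold change of 2.31 (SE 1.15, 95% confidence interval -0.24 to 4.85, limma adjusted p = 0.187) rested largely on this sample. Without it, the log2 fold change was 0.80 (adjusted p = 0.0358). The 2D replicate 3 lay more than 2 log2 units below every other 2D sample for 177 genes, 1.52% of those tested, and the gap of *Timp3* was the 4th largest of them. That sample had 190 genes at 0 reads, against 21, 41 and 68 in the 2D replicates 1, 2 and 4.

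The disintegrin members differed in sign. *Adamts1* lies on chromosome 16 at 85793827 to 85803113, *Adam9* on chromosome 8 at 24949611 to 25016927 and *Adam17* on chromosome 12 at 21323509 to 21373632. *Adamts1*, which encodes a secreted protease that cuts the proteoglycans versican and aggrecan, had 489, 227, 259 and 270 reads in 2D and 437, 617, 529 and 460 reads in 3D. After scaling to library size, the 3D samples (5.81 to 6.26 log2 CPM) lay above all 2D samples, of which replicate 1 was the highest at 5.69 log2 CPM and the others lay between 4.82 and 4.96. The log2 fold change was 0.90 (SE 0.21, limma adjusted p = 0.0144), and without the 2D replicate 1 it was 1.09 (adjusted p = 0.00303), which passes both thresholds.

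*Adam9*, which encodes a membrane-bound protease, was the member with a negative log2 fold change. It had 464, 40, 49 and 80 reads in 2D and 28, 12, 13 and 16 reads in 3D. Every 3D sample was below every 2D sample, and the 2D replicate 1 was far above the other 2D samples. Group means were 3.45 ± 1.46 log2 CPM for 2D and 1.20 ± 0.51 log2 CPM for 3D (SD, n = 4 each). The difference of -2.25 on the log2 scale (SE 0.63, limma adjusted p = 0.0310) was not called. Without the 2D replicate 1, it was -1.53 (adjusted p = 0.0220). *Adam17*, which encodes the protease that releases TNF and several ligands of the EGF receptor, was at 5.71 ± 0.11 log2 CPM in 3D against 5.49 ± 0.20 log2 CPM in 2D (SD, n = 4 each). The difference was 0.22 on the log2 scale (95% confidence interval -0.10 to 0.54, limma adjusted p = 0.316).

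The second comparison asked which genes differ between the core and the outer layers of the spheroids. *Mmp11* had 7216, 7132, 3791 and 11490 reads in the internal samples and 911, 565 and 613 reads in the external samples. These were 10.08, 9.69, 9.76 and 9.89 log2 CPM in the internal and 7.23, 6.95 and 7.36 log2 CPM in the external region. The groups lay far apart. The mean was 9.86 ± 0.17 log2 CPM (SD, n = 4) in the internal and 7.18 ± 0.21 log2 CPM (SD, n = 3) in the external region. This gave a log2 fold change of 2.68 (SE 0.14, 95% confidence interval 2.38 to 2.97), or 6.39-fold higher in the internal region, with a limma adjusted p of 2.06e-11. The mitochondrially encoded share of reads, given above, was also higher in all internal samples.

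Of the 9 members, 2 were called higher in the internal region (*Mmp2*, *Mmp11*) and 1 lower (*Timp1*), against 3.27% and 4.35% of all 11299 genes. The groups did not overlap for 6 members that were higher (*Mmp2*, *Mmp11*, *Mmp14*, *Timp2*, *Timp3*, *Adamts1*) and 1 that was lower (*Timp1*), against 13.5% and 15.4% of all genes. The median log2 fold change of the members was 0.81, with 7 positive and 2 negative, and that of all genes was 0.04.

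**Figure D2:**
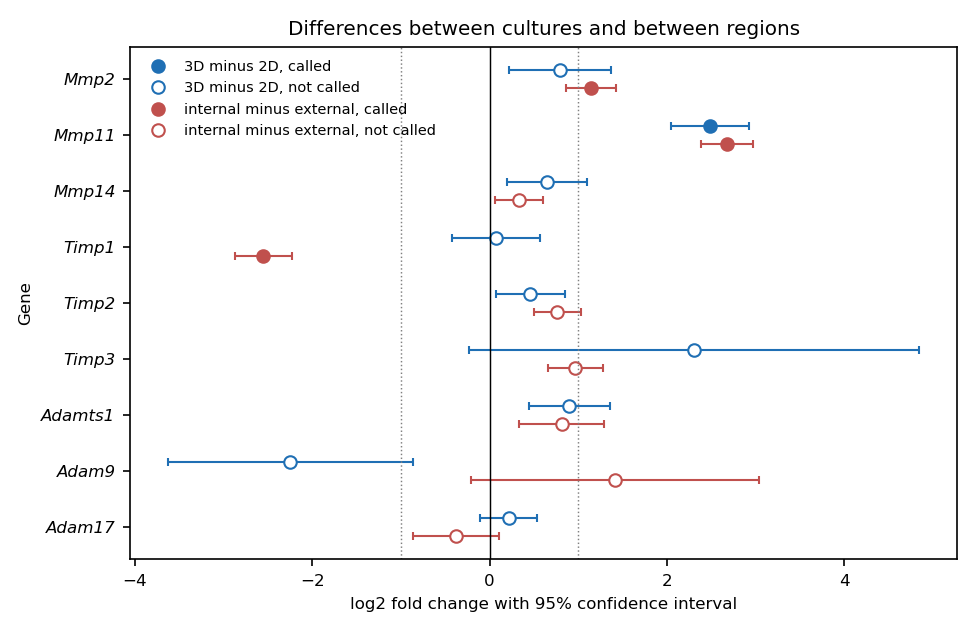
Log2 fold change of the 9 genes with its 95% confidence interval from limma, 3D minus 2D in blue and internal minus external in red. Filled points were called, and dotted lines mark the fold change threshold of 1 in either direction. *Mmp11* was called higher in both comparisons, and *Timp1* was near 0 between 3D and 2D but at -2.55 between internal and external.

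*Mmp2* was also called. It had 10.27, 10.26, 9.82 and 10.06 log2 CPM in the internal samples and 8.97, 8.91 and 9.00 log2 CPM in the external samples. The internal samples were all above the external ones. The difference was 1.15 on the log2 scale (SE 0.13, 95% confidence interval 0.87 to 1.42), or 2.21-fold, with a limma adjusted p of 1.38e-06. *Mmp14* was at 9.94 ± 0.06 log2 CPM (SD, n = 4) in the internal and 9.60 ± 0.21 log2 CPM (SD, n = 3) in the external region. These groups did not overlap, and the log2 fold change of 0.34 (SE 0.13, limma adjusted p = 0.0688) was not called.

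*Timp1* had the opposite pattern to *Mmp11*. It had 642, 859, 501 and 1164 reads in the internal samples and 3329, 2354 and 2798 reads in the external samples, which were sequenced less deeply than most internal ones. These were 6.59, 6.64, 6.85 and 6.59 log2 CPM in the internal and 9.10, 9.00 and 9.55 log2 CPM in the external region. The groups lay far apart, with the external samples higher. The log2 fold change was -2.55 (SE 0.15, 95% confidence interval -2.87 to -2.23), or 5.85-fold lower in the internal region, with a limma adjusted p of 5.53e-11. Whether the difference between the regions is distinct from that between the cultures was not tested.

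The promoter of *Timp1*, the member called lower in the internal region, is shown beside that of *Mmp11*. It lies at chrX:20869916-20870215 on the plus strand (RefSeq, GRCm38.p6) and reaches into the start of the gene, which spans 20870166 to 20874735 on chromosome X in GENCODE vM21. Capitals again mark GGGCGG or its reverse complement.
*Timp1*: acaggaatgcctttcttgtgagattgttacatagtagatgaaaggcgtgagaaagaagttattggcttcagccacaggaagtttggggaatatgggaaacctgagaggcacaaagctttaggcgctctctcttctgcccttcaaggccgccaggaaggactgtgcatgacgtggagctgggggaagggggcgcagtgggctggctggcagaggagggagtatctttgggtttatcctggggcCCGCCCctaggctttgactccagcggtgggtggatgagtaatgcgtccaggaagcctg
This window held 1 match, on the opposite strand at -8, against 4 in that of *Mmp11*, and its GC content was 55%. The ACGTG match lay at -82. *Timp1* overlaps *Syn1* on the other strand, *Timp3* overlaps *Syn3* and *Mmp11* overlaps *Chchd10* in the same way. Likewise, *Adam17* overlaps *Iah1*, and only sense reads were counted. *Timp2* overlaps *Cep295nl* on the same strand, so reads shared by these genes cannot be assigned with certainty.

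The other inhibitors were higher in every internal than in every external sample, but neither was called. *Timp2* was at 10.95, 10.77, 11.04 and 11.01 log2 CPM in the internal and 10.26, 10.21 and 10.07 log2 CPM in the external samples. The groups did not overlap, and the log2 fold change was 0.76 (SE 0.13, limma adjusted p = 0.000105), under the threshold of 1. *Timp3* was at 8.36, 8.35, 8.24 and 8.54 log2 CPM in the internal and 7.58, 7.56 and 7.09 log2 CPM in the external samples. This gene also stood apart between the regions, and its log2 fold change of 0.97 (SE 0.15, limma adjusted p = 4.75e-05) lay just under the threshold. It passed the threshold when the internal replicate 3 (1.01), the external replicate 1 (1.05) or the external replicate 2 (1.04) was left out.

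*Adamts1* was at 5.96, 6.10, 6.22 and 6.17 log2 CPM in the internal and 5.77, 5.46 and 4.67 log2 CPM in the external samples. The groups did not overlap, but the external samples varied, and the log2 fold change was 0.81 (SE 0.23, limma adjusted p = 0.0126). Without the external replicate 1 it was 1.05 (adjusted p = 0.00400), and without the external replicate 3 it was 0.50 (adjusted p = 0.117). *Adam17* was at 5.07 ± 0.25 log2 CPM (SD, n = 4) in the internal and 5.45 ± 0.26 log2 CPM (SD, n = 3) in the external region, with overlapping groups (log2 fold change -0.38, limma adjusted p = 0.270). *Adam9* had 17, 32, 11 and 59 reads in the internal and 19, 1 and 4 reads in the external samples. No difference was called, and its 95% confidence interval ran from -0.21 to 3.04 around a log2 fold change of 1.41 (limma adjusted p = 0.215). It was 2.09 without the external replicate 1 and 0.73 without the external replicate 2.

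The reads of the TIMP genes were also expressed as shares of their sum in each sample, as a description with no test. *Timp1* made up 39.7 ± 6.88% of the *Timp1*, *Timp2* and *Timp3* reads of 2D samples and 32.1 ± 7.69% of those of 3D samples (SD, n = 4 each). In the external region it made up 31.1 ± 6.18% (SD, n = 3), and in the internal region 4.23 ± 0.377% (SD, n = 4). *Timp2* went from 60.0 ± 4.48% (SD, n = 3) in the external to 81.9 ± 1.31% (SD, n = 4) in the internal region, so that nearly all TIMP reads of the core came from *Timp2* and *Timp3*. The sum of the TIMP levels was 1853 ± 93.8 CPM (SD, n = 3) in the external and 2485 ± 159 CPM (SD, n = 4) in the internal region, and it was 1607 ± 274 CPM for the 2D and 2036 ± 183 CPM for the 3D samples (SD, n = 4 each).

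Among the MMP reads, the share of *Mmp11* was higher in 3D and in the internal region. It made up 3.65 ± 0.660% of the *Mmp2*, *Mmp11* and *Mmp14* reads of 2D samples and 11.9 ± 1.20% of those of 3D samples (SD, n = 4 each). In the external region it made up 10.2 ± 1.47% (SD, n = 3), and in the internal region 30.8 ± 2.51% (SD, n = 4). *Mmp14* took 54.7 ± 3.91% of these reads in the external region (SD, n = 3) and 32.6 ± 3.17% in the internal region (SD, n = 4), whereas *Mmp2* took 35.0 ± 2.77% and 36.6 ± 3.57%. The sum of the MMP levels was 555 ± 20.8 CPM for the 2D and 933 ± 142 CPM for the 3D samples (SD, n = 4 each). It was 1363 ± 56.6 CPM (SD, n = 3) in the external and 3123 ± 203 CPM (SD, n = 4) in the internal region.

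**Figure D3:**
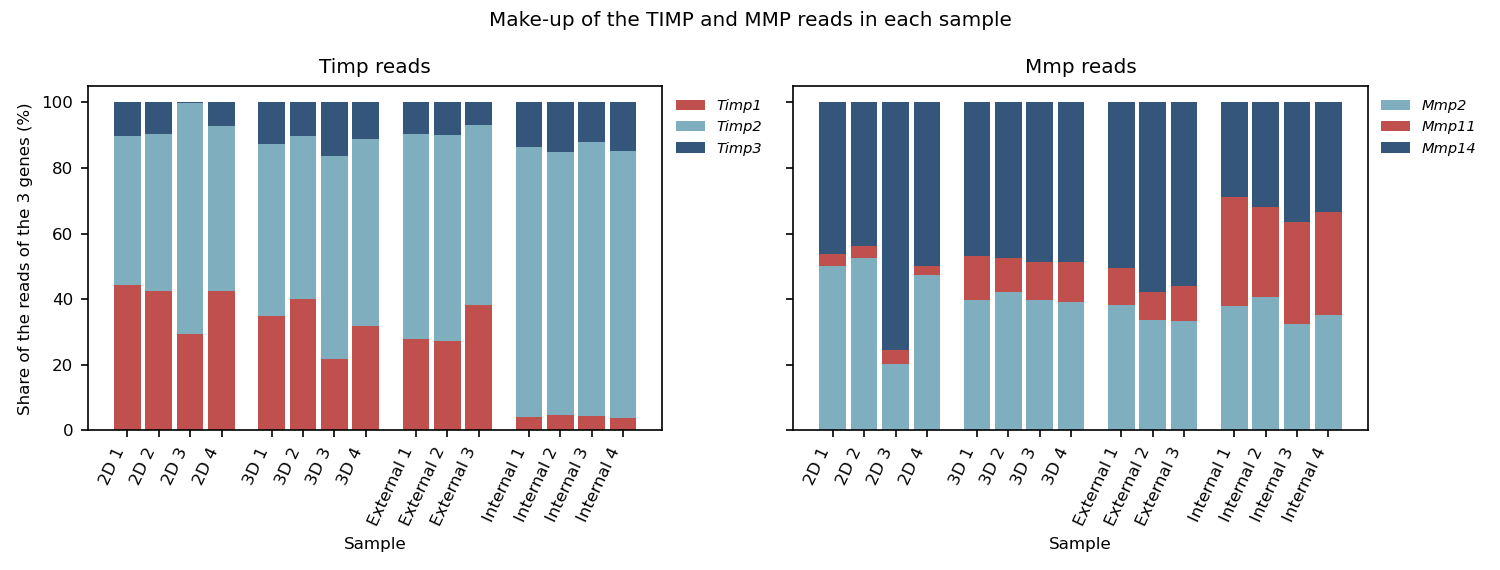
Share of each gene in the summed reads of *Timp1*, *Timp2* and *Timp3* (left) and of *Mmp2*, *Mmp11* and *Mmp14* (right), in percent, with a bar for each sample. The share of *Timp1* lay between 3.82 and 4.56% in the internal samples and between 27.2 and 38.3% in the external samples, and that of *Mmp11* between 27.3 and 33.3% and between 8.60 and 11.4%.

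Lists of related genes, drawn up with earlier results of these data known, place the members among their families. The counts below include the members. Of 23 MMP genes, 11 were measured in the cultures and 9 in the regions. In 3D, *Mmp11* was called higher and none lower, apart from *Mmp13*, which entered the table only through its 3D reads and whose call is therefore not counted as a result. *Mmp13*, which encodes collagenase 3, had 0, 1, 0 and 0 reads in 2D and 4, 23, 19 and 27 reads in 3D, so the 2D samples lay under the limit of 3 reads and no fold is given. The call was lost in 6 of the 8 fits that left out a sample (2D replicate 1, 3 or 4, or 3D replicate 2, 3 or 4) and with a prior count of 5 reads. In the internal region, *Mmp2*, *Mmp11* and *Mmp16* were called higher, and *Mmp16*, which encodes another membrane-type MMP, had a log2 fold change of 1.05 (SE 0.18, limma adjusted p = 0.000159). Its call was lost with median-centred samples (0.99) and without a variance trend (adjusted p = 0.0116). The median log2 fold change of the MMP list was 1.12 between the cultures and 0.75 between the regions, and it was 0.72 and 0.54 over the 8 genes of each table whose mean reached 1 log2 CPM.

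A list of 9 inhibitors and related genes held the TIMPs, *Reck*, *A2m* and *Tfpi2*, and also *Pcolce* and *Pcolce2*, which are not protease inhibitors but enhancers of procollagen processing. Of these 9, 6 were measured in each table. Between the cultures none was called by limma, and at an unadjusted p under 0.05 there was 1 higher and 1 lower, against 33.7% of all genes in both directions together. *Pcolce2* had a log2 fold change of -1.12 there (limma adjusted p = 0.0123), and it was called with a robust variance prior, with median-centred samples and without the 2D replicate 2. In the internal region, *Timp1* and *Pcolce2* were called lower. *Pcolce2* had a log2 fold change of -2.18 (SE 0.45, limma adjusted p = 0.00100) and lost its call without the external replicate 2 or without a variance trend. The medians of this list were 0.10 and 0.49. Of 13 ADAM proteases, 9 were measured in each table and none was called by limma in either comparison, with 1 higher and 1 lower between the cultures and 0 higher and 2 lower between the regions at an unadjusted p under 0.05, which 33.7% and 33.6% of all genes passed.

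Of 19 ADAMTS proteases, 11 were measured in each table. *Adamts2*, which encodes the protease that removes the amino-terminal propeptide of procollagens, was called higher in 3D (log2 fold change 1.55, SE 0.26, limma adjusted p = 0.00375) and in the internal region (1.89, SE 0.38, adjusted p = 0.000703). The call in 3D was lost without the 2D replicate 3, the 3D replicate 3 or the 3D replicate 4, with an adjusted p of at most 0.0176, and that in the internal region without a variance trend. In the internal region, the aggrecanase gene *Adamts5* was called higher (1.52, SE 0.37, adjusted p = 0.00383), a call that was lost without the internal replicate 2, 3 or 4, the external replicate 2 or the variance trend. *Adamts14*, a close relative of *Adamts2*, was called lower there (-2.56, SE 0.40, adjusted p = 4.58e-05) under every alternative tried.

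Among 22 activators and partners of these proteases, 17 were measured in the cultures and 16 in the regions. *Plaur*, which encodes the urokinase receptor, was called lower in 3D (log2 fold change -1.11, SE 0.16, limma adjusted p = 0.00174) and in the internal region (-2.52, SE 0.27, adjusted p = 5.03e-07). *Tspan17*, which encodes a tetraspanin that binds ADAM10, was called higher in the internal region (1.23, SE 0.18, adjusted p = 2.59e-05), but not without a variance trend (adjusted p = 0.0187). The list medians were 0.08 and 0.06.

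Among 27 ligands and receptors linked to shedding by ADAM proteases, 21 were measured in the cultures and 19 in the regions. None was called between the cultures by limma, with 7 higher and 3 lower at an unadjusted p under 0.05, a level that 33.7% of all genes passed in that table. Without the 2D replicate 2, 2 genes of this list were called higher and 2 lower in 3D, in a fit that called 4.14% of all genes higher and 2.46% lower. In the internal region, *Hbegf* and *Ereg*, which encode ligands of the EGF receptor, were called lower. *Hbegf* had a log2 fold change of -1.63 (SE 0.14, limma adjusted p = 2.81e-08) and *Ereg* of -2.80 (SE 0.27, adjusted p = 1.12e-07). *Egfr*, which encodes their receptor, was called higher (1.13, SE 0.28, adjusted p = 0.00483), as were *Cx3cl1* (1.37, SE 0.27, adjusted p = 0.000603) and *App* (1.14, SE 0.18, adjusted p = 4.40e-05). The call of *Egfr* was lost without the internal replicate 2 or 4 or the external replicate 3, that of *Cx3cl1* without the external replicate 3, and that of *App* without the external replicate 2. None of these 3 was called when limma was run without a variance trend, whereas *Hbegf* and *Ereg* were called under every alternative fit.

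**Figure D4:**
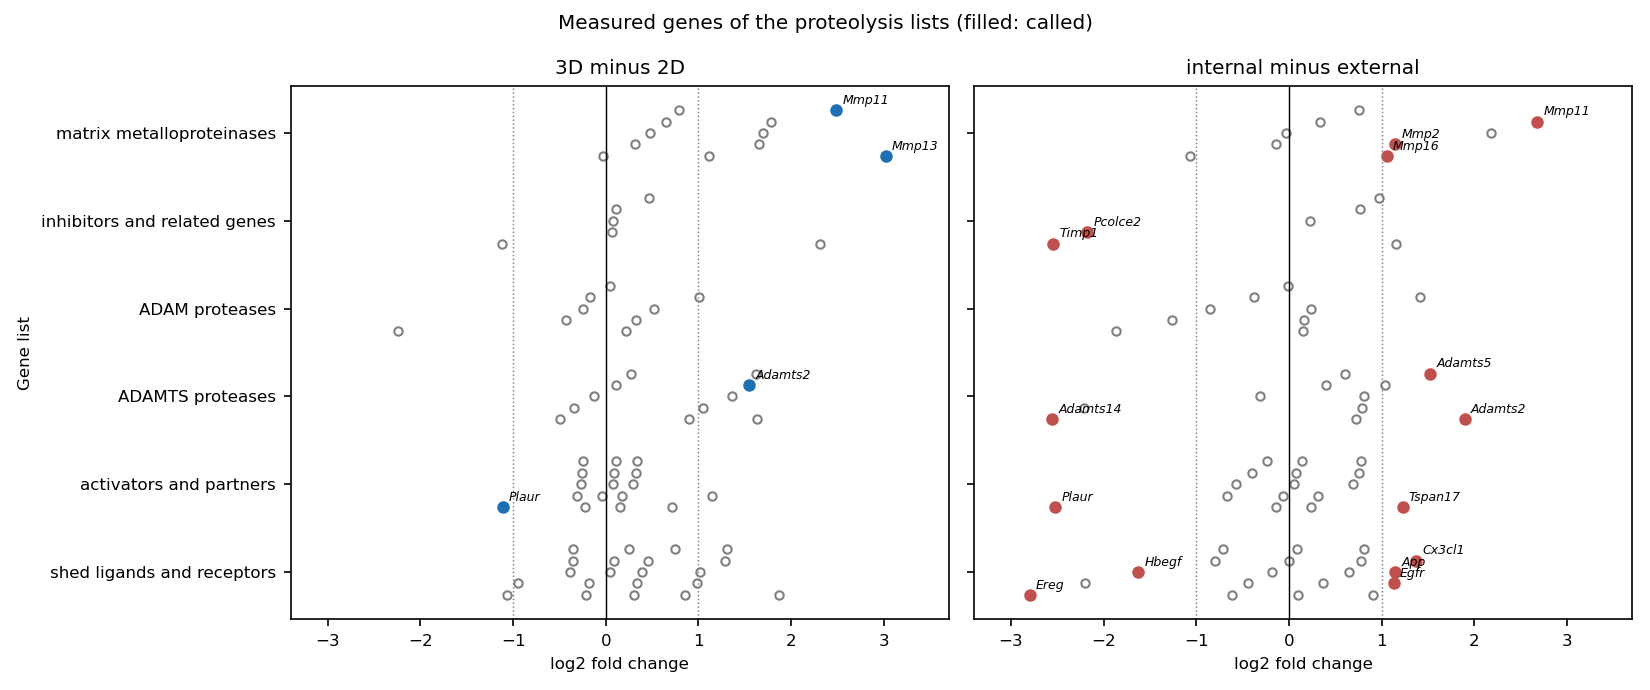
Log2 fold change of each measured gene of the 6 lists, 3D minus 2D on the left and internal minus external on the right, with the genes of a list spread vertically for legibility. Filled points were called and are named, and dotted lines mark the fold change threshold of 1. *Mmp13*, with 2D reads under the limit, is drawn between the cultures at a fitted value that depends on the prior count, as is *Mmp23* (2.18, not called) between the regions, with external reads under the limit. *Mmp11* was the gene farthest to the right between the regions, where *Ereg*, *Adamts14*, *Timp1* and *Plaur* were all under -2.5.

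*Mmp11* was the member with the largest absolute log2 fold change in both comparisons, and the genes whose pattern was most like it were taken by Pearson's r over the samples of a table. In the cultures (8 samples), these were *Efna1* (r = 0.997), *Enpp5* (r = 0.994) and *Mgst1* (r = 0.992). In the regions (7 samples), they were *Rspo3* (r = 0.998), *Fbxl20* (r = 0.995) and *Ctsb* (r = 0.995). *Rspo3*, which encodes a secreted enhancer of Wnt signaling, went from 2.62 ± 0.23 log2 CPM (SD, n = 3) in the external to 5.72 ± 0.32 log2 CPM (SD, n = 4) in the internal region. Among the members, *Mmp2* was closest to *Mmp11* in the regions (r = 0.973) and *Timp1* was opposite to it (r = -0.977), whereas *Adamts1* was closest in the cultures (r = 0.838). These correlations describe samples that fall into a pair of groups and share their libraries, so r also reflects the difference between the groups.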

How the data were processed

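The samples were grouped by the condition in their labels. Per the study's methods and processing notes, the authors trimmed the reads, kept those in the sense orientation and mapped them to GRCm38.p6 with STAR 2.7.8a. Unique alignments were assigned to genes with featureCounts 1.6.0, and genes with a low CPM were removed. Per sample, the authors deposited log2 CPM, in 2 tables with separate normalization. The tables also hold group means and the fold changes and p-values of the authors' own comparisons, none of which were used. The fits below used these log2 CPM values, and no count model was fitted.

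Whole reads were recovered from the spacing of the log2 values (100% of 93416 and 79093 values within 0.1 read). PCR copies of a molecule cannot be told apart, so the limit of 3 reads covers counting error only. Differences were tested two-sided with limma 3.58.1 in R 4.3.3, using a variance trend and adjusting p by Benjamini-Hochberg over the whole table, and the script was tested on simulated data. Nothing in the labels says that replicates came from separate cultures, so p-values measure the spread between these samples. The members and lists were chosen with earlier results of these data known. Named genes are all members, the called genes of the lists, and in each table the 3 genes most like the member with the largest difference. Markers are named as a check of the samples, and *Mmp19* and *Reck* were chosen after their values were seen. Alternatives were other variance priors, thresholds, prior counts (0.5 and 5 reads), median centring, a filter at a mean of 1 log2 CPM, a replicate block, and leaving out each sample. Ensembl IDs were matched to GENCODE vM21 (11676 of 11677 and 11298 of 11299), and 7 of the 9 members were matched to RefSeq promoters by symbol. Further software was pandas 2.3.3, numpy 2.4.6, matplotlib 3.10.9 and scipy 1.17.1 on Python 3.11.15.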

Additional observations from a re-analysis of the deposited data

Results flagged for a closer look

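In 27 groups of 4 values (9 genes in the 2D, 3D and internal samples), 3 values stood apart from the rest of their group by Dixon's criterion, and chance gives about 1 in 20 such groups. The 27 groups share libraries and are not independent of each other. The external region, with 3 samples, was not tested. *Timp3* in the 2D replicate 3 was at 1.16 log2 CPM (17 reads), with a gap of 0.933 of the range. *Mmp2* in the same sample was at 6.86 log2 CPM (990 reads), with a gap of 0.860 of the range. *Adamts1* in the 2D replicate 1 was at 5.69 log2 CPM (489 reads), with a gap of 0.838 of the range. All 3 values lie in 2D samples.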

How the results depend on the processing

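Fold changes of members were refitted under 15 alternatives between the cultures and 14 between the regions. *Mmp11* was called in all of them, at 2.34 to 2.61 between the cultures (adjusted p at most 0.00239) and 2.56 to 2.77 between the regions, as were *Mmp2* (1.08 to 1.24) and *Timp1* (-2.66 to -2.38) between the regions. When single samples were left out, the number of members called higher ranged from 1 to 2 in 3D, where *Adamts1* joined without the 2D replicate 1, and from 2 to 4 in the internal region, where *Timp3* and *Adamts1* joined without the external replicate 1. The fit without the 2D replicate 1 called 2.94% of all genes higher, and that without the external replicate 1 called 3.56%. With no fold change threshold, 4 members were higher in the internal region, as were 5.20% of all genes. With an adjusted p under 0.05, 1 member (*Adam9*) was lower in 3D, as were 2.86% of all genes, and the same held with the replicate block (1, adjusted p = 0.00550 for this gene). The log2 fold change of *Timp1* in 3D reversed to -0.14 without the 2D replicate 3, and ranged up to 0.21 when other samples were left out. The causes were not tested. The replicate numbers were not taken to pair the samples, since the sources do not say so and not every pair deviated together: deviations from the group means correlated at 0.227, 0.503, 0.0661 and 0.00521 in the cultures and at -0.0440, -0.0650 and -0.0634 in the regions. With this block, 389 genes were called higher and 213 lower in 3D (341 and 176 without it), and 256 and 399 in the internal region (370 and 491). Of the shed ligands and receptors, 1 was called higher and 1 lower in 3D with the block. Between the regions, *Pcolce2*, *Adamts2*, *Adamts5* and *Egfr* were not called with the block. Without a variance trend, the regions gave 117 and 207 calls, and the cultures 239 and 123. Leaving out single samples gave 112 (without the 3D replicate 3) to 483 genes called higher and 49 to 287 lower in 3D. The alternatives for the lists were added after seeing the data. List counts in 3D ranged from 1 to 3 for MMP genes, with *Mmp13* included where it was called, and 0 to 4 for ADAMTS genes called higher. Under the same alternatives, the share of all genes called higher ranged from 0.959% (without the 3D replicate 3) to 5.52% (adjusted p under 0.05). *Adam9* had few reads in the regions, with 1 read in the external replicate 2, and the part of depth in its result was not tested.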

Other observations

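Further genes of the lists had differences that were not called but did not overlap between groups. *Mmp19*, which encodes a matrix-degrading MMP, was at 5.53 log2 CPM in 3D and 3.87 log2 CPM in 2D on average (n = 4 each), a log2 fold change of 1.65 (SE 0.42, limma adjusted p = 0.0225), and it was at -0.03 (adjusted p = 0.949) between the regions. *Reck*, which encodes a membrane-anchored inhibitor of MMPs, had a log2 fold change of 1.16 (SE 0.39, limma adjusted p = 0.0346) in the internal against the external region, and of 0.12 (adjusted p = 0.855) between 3D and 2D. These 2 genes were chosen after their values were seen.

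The 2D replicate 1 lay more than 2 log2 units above every other 2D sample for 40 genes, 0.343% of those tested, and the gap of *Adam9* in it was 2.51 log2 units, the 17th largest of them. The 2D replicate 2 lay as far below the other 2D samples for 116 genes, none of which was a member.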
